A study of Mus musculus with 45 samples.

Results

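A set of 38 synaptic genes, chosen by symbol from a written list, was followed through RNA level and RNA half-life in primary cells of the embryonic mouse cortex. All 38 were found among the 53491 genes tabulated. On the presynaptic side stood 20 genes that serve the release of synaptic vesicles, and on the other side 18 genes for adhesion molecules, postsynaptic scaffolds and neurotransmitter receptors. Cells were wild type (WT) and came from embryos of stage E11.5, E14.5 or E16.5, which counts the embryonic day. Each stage had 3 replicates, A, B and C, and each replicate was 1 pool that took the cortices of 7 E11.5 embryos or of 2 embryos of a later stage. All cells were dissociated and grown in neural progenitor medium with bFGF, a growth factor that favours division. They were labelled with 100 uM 4-thiouridine (4sU), a uridine analogue, for 20 h and then given 5 mM uridine. RNA was taken after 0, 2, 4, 8 and 12 h of this chase from separate wells of the same pool, which gave 45 libraries in 15 groups of 3. Every level below is thus that of cultured, 4sU-treated cells, and uncultured cortex and cells without 4sU were not analysed here.

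Synapses pass signals by the fusion of transmitter-filled vesicles with the membrane of the sending neuron. SNARE proteins drive the fusion, some synaptotagmins make it respond to calcium, and large active zone proteins hold vesicles near the release site. Neurexins and neuroligins join the cells across the cleft, where scaffolds hold glutamate and GABA receptors in place. Newborn cortical neurons begin to make many of these RNAs before mature synapses form, whereas radial glia, the dividing cells that generate them, make less of most.

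SLAM-seq reads incorporated 4sU as a T-to-C conversion. Expression was taken as reads per 1e6 reads (cpm), and the conversion rate of a gene as converted Ts over covered Ts. In units of 1e6, the libraries held 15.9 to 43.9 reads and 229 to 629 covered Ts (median 473). At 0 h, 9 of 9 neuron markers were above 1 cpm at each stage, and their sum was 3170 to 3758, 6207 to 6997 and 8841 to 9250 cpm in stage order. Of the 9, 4 rose and 0 fell between E11.5 and E14.5 by the test and thresholds given below. The step to E16.5 had 0 calls among them, and Neurod6 was at means of 858 and 742 cpm at E14.5 and E16.5. The sum of 8 radial glia markers was lower at each later stage, at 9718 to 10247, 3716 to 4313 and 1496 to 1646 cpm. Vim alone was at 6985 of a mean sum of 9968 cpm at E11.5. Slc1a3 was higher at both later stages than at E11.5, with means of 99.0, 290 and 190 cpm. By the test and thresholds given below, 5 of the 8 fell and 1 rose between E11.5 and E14.5. Between E14.5 and E16.5, 2 fell and 0 rose. Interneuron markers summed to 39.9 to 45.7 cpm at E11.5, 57.1 to 61.2 at E14.5 and 299 to 306 at E16.5. Of 6 tested, 3 rose and 1 fell between E11.5 and E14.5, and 6 rose between E14.5 and E16.5. Dlx2 was lower at E14.5 than at the other stages, with means of 27.9, 8.10 and 50.7 cpm in stage order. The E11.5 pools also held erythroid markers, at 1656 to 3652 cpm against at most 75.9 later, and meningeal and mural markers, at 405 to 612 cpm against at most 26.0 later. The sum of 5 endothelial markers was at most 5.75 cpm at any stage, and that of 5 microglia markers at most 12.0 cpm. In bulk RNA, fewer cells of a type and less RNA per cell cannot be told apart, and the part of these shifts in the results below was not tested.

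The first question was how the synaptic RNAs changed between successive stages at 0 h. Between E11.5 and E14.5, 22 of the 38 genes rose and 0 fell (edgeR quasi-likelihood test, adjusted p under 0.05 and log2 fold change beyond 1). At an unadjusted p under 0.05, 35 were higher and 0 lower, and DESeq2 gave the same counts. Over all 18408 genes tested, 8.14% rose and 8.00% fell. The median change of the synaptic genes was 1.19 on the log2 scale, against -0.01 over all genes. Between E14.5 and E16.5, 17 of 38 rose and 0 fell, against 7.19% and 5.92% of all genes, with a median of 0.77 against -0.0018 over all genes (30 higher and 0 lower at an unadjusted p under 0.05, by either tool). Replicates of the stages compared did not overlap for 31 of 38 genes in the first step and for 32 in the second, beside 55.4% and 61.4% of all genes. Compared between the 12 h libraries in place of those of 0 h, 16 genes rose in the first step and 16 in the second. That fit tested 17615 genes, and its shares over all genes are not given here. When the test was set against a fold change of 2 itself, 9 genes in place of 17 rose in the second step.

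Counted by side, the calls fell at different steps. On the presynaptic side 13 of 20 genes rose in the first step, with a median of 1.28, and 5 of 20 in the second, with a median of 0.68. Among adhesion, scaffold and receptor genes, 9 of 18 rose in the first step (median 0.95) and 12 of 18 in the second (median 1.14). Over all genes, 8.14% rose in the first step and 7.19% in the second. Neurexins, although presynaptic, were counted with the adhesion genes of the other side. Within the list of the presynaptic side, no gene passed both thresholds in the second step without having done so in the first. On the other side 7 genes did so: Nrxn2, Nlgn1, Nlgn2, Shank2, Shank3, Gria4 and Gabra2. Of these, Shank2 (0.79), Nlgn1 (0.73) and Gabra2 (0.60) were higher at E14.5 than at E11.5 as well, below the fold threshold, with replicates that did not overlap (adjusted p = 2.42e-06, 2.75e-05 and 7.23e-05). The contrast depends on the fold threshold. In the second step 10 presynaptic genes and 3 of the other side were higher with adjusted p under 0.05 but below a fold of 2. Of all 18408 genes, 6701 were in that range, in either direction. Replicates did not overlap in the second step for 16 of 20 presynaptic genes and 16 of 18 others, beside 61.4% of all genes. No test between the steps was made. No test of this difference between the sides was made, because the genes are a chosen list.

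**Figure D1:**
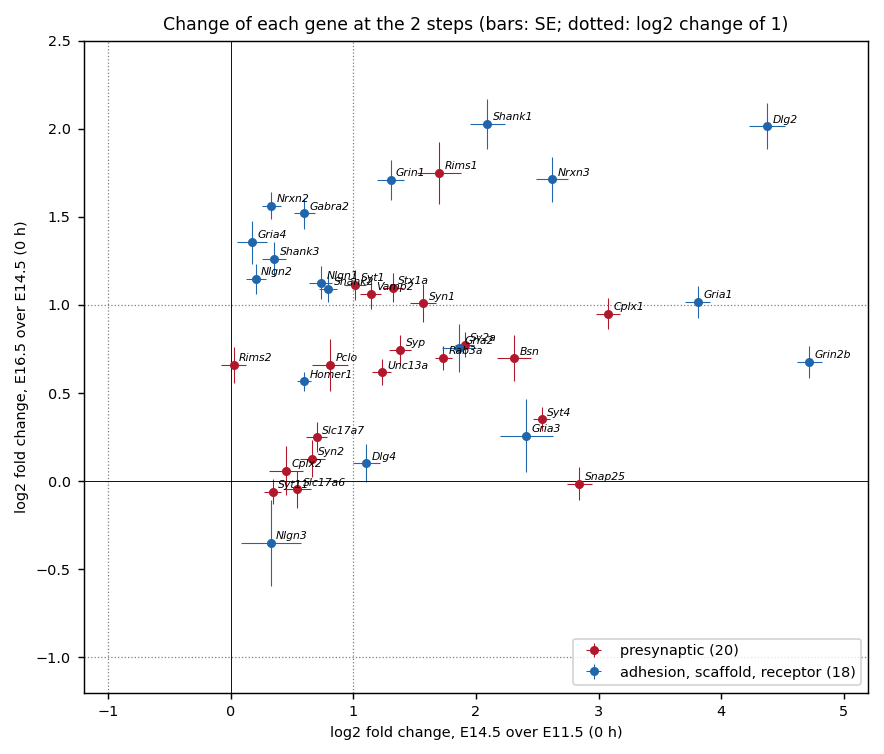
Change of each of the 38 genes between E11.5 and E14.5 (x axis) and between E14.5 and E16.5 (y axis), as log2 fold change with standard error, coloured by side. Grin2b, Dlg2 and Gria1 lie farthest right, at 4.72, 4.38 and 3.81, and Shank1 and Dlg2 lie highest, at 2.03 and 2.02.

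Among SNARE genes, Snap25 (chr2:136713453-136782428, plus strand, GRCm38), a plasma membrane SNARE that the study lists as a neuron gene, stood at 26.2, 24.0 and 19.8 cpm in replicates A, B and C at E11.5. It was at 165, 149 and 183 cpm at E14.5 and at 161, 155 and 168 cpm at E16.5. All of the rise lay in the first step (log2 2.84, SE 0.10, adjusted p = 2.57e-10). In the second step the replicates overlapped and the fitted difference was -0.01 (SE 0.09, adjusted p = 0.916), with a sign that changed under other scalings.

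Stx1a (chr5:135023482-135051100, plus strand), the plasma membrane syntaxin that pairs with SNAP-25, was at 7.63, 8.56 and 8.46 cpm at E11.5, at 20.1, 20.5 and 18.5 cpm at E14.5 and at 42.0, 38.9 and 41.3 cpm at E16.5. Each stage was above the one before in every replicate, with rises of 1.32 (SE 0.08) and 1.10 (SE 0.08) on the log2 scale. Vamp2 (chr11:69088490-69092384, plus strand), the SNARE of the vesicle membrane, was at 70.3, 74.0 and 75.5, then 168, 167 and 136, then 319, 320 and 321 cpm, and likewise rose at both steps (1.14, SE 0.08, and 1.06, SE 0.08). Of the SNARE genes, Snap25 was thus the one with no call in the second step.

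The synaptotagmin genes were unlike one another. Syt1 (chr10:108497650-109010982, minus strand), the sensor of fast release, was at 41.0, 36.6 and 47.4 cpm at E11.5, 83.5, 74.7 and 84.8 at E14.5 and 178, 173 and 172 at E16.5. It rose at each step, by 1.01 (SE 0.09) and 1.11 (SE 0.09) on the log2 scale. Syt4, a synaptotagmin of vesicle traffic, rose in the first step, from 61.0, 62.2 and 55.6 to 338, 308 and 370 cpm (2.53, SE 0.07, adjusted p = 4.57e-11), and stood at 416, 421 and 423 cpm at E16.5. That second difference, 0.35, was below the fold threshold. Syt11 (chr3:88744700-88775164, minus strand), a synaptotagmin that does not bind calcium, was already at 425 ± 33.9 cpm (SD, n = 3) at E11.5 and at 521 ± 33.8 and 490 ± 5.98 cpm later, and neither step was called. Antisense Gm26658 overlaps part of the exon bases of Syt4, and the strand setting of the counting is not given in the sources used here.

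Complexins bind the assembled SNAREs. Cplx1 (chr5:108518554-108550024, minus strand) had the largest rise of the presynaptic genes in the first step, from 8.21, 8.75 and 9.04 cpm to 80.8, 68.8 and 63.1 cpm (3.08, SE 0.10, adjusted p = 1.04e-10). It reached 132, 137 and 136 cpm at E16.5. Its paralogue Cplx2 (chr13:54371349-54383917, plus strand) began far higher, at 300, 323 and 220 cpm, and was at 392, 425 and 299 cpm and then 401, 378 and 361 cpm, with overlapping replicates at both steps and no call (0.45, SE 0.14, and 0.06, SE 0.14).

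Among synapsins and other vesicle proteins, Syn1, Rab3a, Syp and Sv2a rose in the first step and Syn2 was not called. Syn1 (chrX:20860511-20921004, minus strand), which tethers vesicles to the cytoskeleton, was at 27.3, 31.7 and 35.2, then 91.8, 94.1 and 73.4, then 179, 172 and 186 cpm, rising at both steps (1.57, SE 0.11, and 1.01, SE 0.11). Rab3a (chr8:70754679-70758677, plus strand), a vesicle GTPase and a neuron gene of the study, was at 48.6, 52.4 and 55.3 cpm at E11.5, 170, 163 and 173 at E14.5 and 262, 256 and 284 at E16.5. It rose in the first step (1.73, SE 0.07) and changed by 0.70 (SE 0.07) in the second, below the fold threshold. The vesicle proteins Syp and Sv2a had the same pattern of calls, with differences of 1.38 and 1.91 followed by 0.74 and 0.78. Antisense Gm14703 overlaps 16.8% of the exon bases of Syp. Syn2, a second synapsin, was called at neither step (0.67 and 0.13).

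In the active zone, Rims1 (chr1:22286251-22805994, minus strand), which docks vesicles at calcium channels, was low at first, at 2.07, 3.22 and 2.19 cpm. It was at 7.03, 6.43 and 8.16 cpm at E14.5 and at 25.0, 23.5 and 22.6 cpm at E16.5. Its rise of 1.75 (SE 0.18, adjusted p = 4.37e-06) was the largest of the presynaptic genes in the second step, after one of 1.70 (SE 0.18) in the first. The scaffold gene Bsn and the priming factor Unc13a rose in the first step (2.31, SE 0.14, and 1.23, SE 0.08) and were not called in the second. The scaffold gene Pclo differed by 0.81 and 0.66, and Rims2 by 0.02 and 0.66, with no call at either step. Slc17a6 and Slc17a7, the vesicular glutamate transporters, differed by 0.54 and 0.70 in the first step and by -0.05 and 0.25 in the second, and none of these was called.

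**Figure D2:**
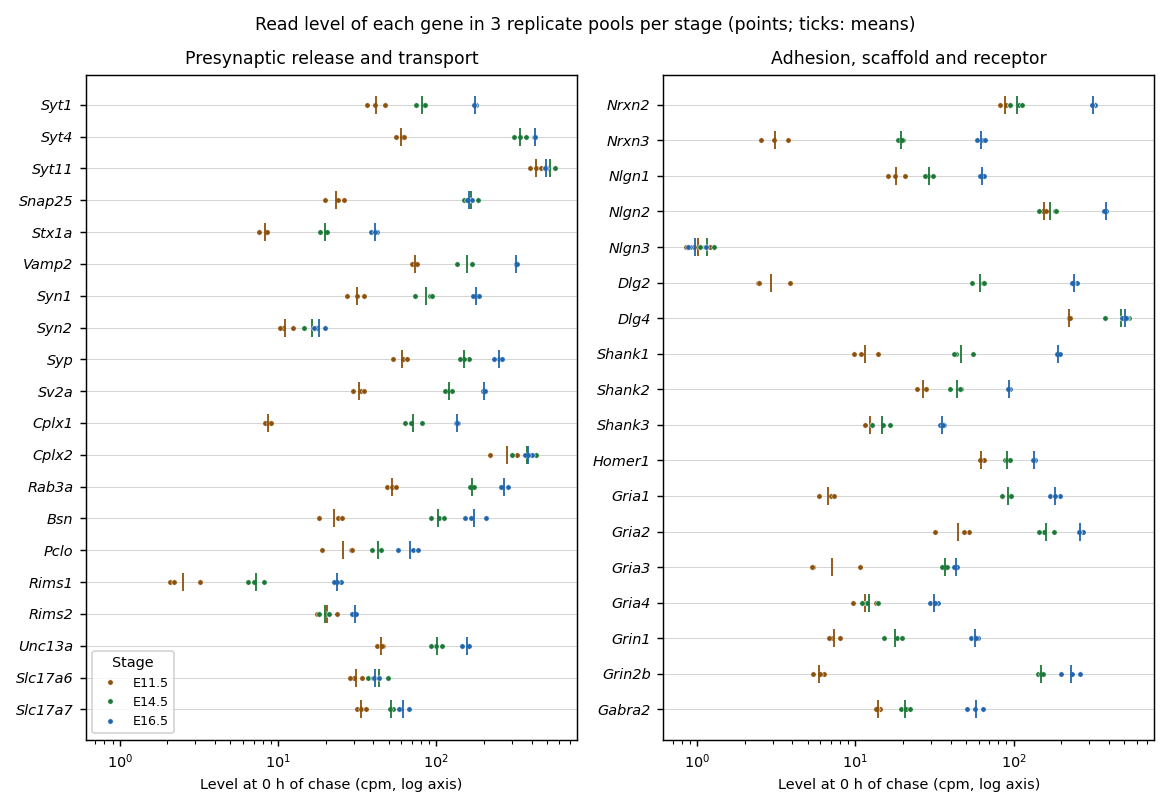
Level of each of the 38 genes at 0 h in cpm (log axis), 1 point per replicate, by stage, in a panel for each side. Dlg2, Grin2b, Nrxn3 and Gria1 start at means of 2.92, 5.91, 3.11 and 6.74 cpm at E11.5 and end at 241, 232, 62.6 and 183 cpm at E16.5, whereas no replicate of Syt11 or Cplx2 is below 220 cpm.

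Of the adhesion genes, 1 of 5 rose in the first step and 4 of 5 in the second, beside 8.14% and 7.19% of all genes. In the first step the differences of all 5 were above 0. Of these, 2 more, Nlgn1 and Nrxn2, had adjusted p under 0.05 below the fold threshold. Nrxn3 (chr12:88722876-90334935, plus strand), a presynaptic neurexin, was at 3.05, 2.55 and 3.73 cpm, then at 20.1, 18.5 and 19.6 cpm and then at 58.3, 63.8 and 65.7 cpm. It rose at both steps (2.62, SE 0.13, and 1.71, SE 0.13). Between the 12 h libraries its first-step difference was 0.60, below the fold threshold. Nrxn2 stood at 88.8 ± 6.53 and 105 ± 9.34 cpm before 317 ± 9.93 cpm (SD, n = 3 each), with a call in the second step (1.56, SE 0.08) and a difference of 0.33 in the first. The postsynaptic partners Nlgn1 and Nlgn2 were also called in the second step (1.13, SE 0.09, and 1.15, SE 0.08), after first differences of 0.73 and 0.20. Nlgn3 was near 1 cpm at every stage (1.01 ± 0.187, 1.15 ± 0.116 and 0.974 ± 0.145 cpm, SD, n = 3), with at least 20 reads in each library. Of its exon bases, 41.2% also belong to Gm21986 on the same strand, so its count is uncertain.

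Dlg2 (chr7:90476672-92449247, plus strand), the scaffold PSD-93, had the widest range of all 38 genes. It was at 2.43, 2.45 and 3.88 cpm at E11.5, at 64.4, 54.4 and 64.6 cpm at E14.5 and at 251, 238 and 234 cpm at E16.5. The mean at E16.5 was 82.5 times that at E11.5, and both steps were called (4.38, SE 0.15, and 2.02, SE 0.13). Its paralogue Dlg4 (chr11:70016942-70047522, plus strand), which encodes PSD-95, began at 224, 222 and 226 cpm, and was at 519, 532 and 378 cpm and then at 522, 481 and 513 cpm. It rose in the first step (1.11, SE 0.11), and its second difference was 0.10 (SE 0.11) with overlapping replicates.

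The Shank genes, which link receptor complexes to actin, were called at different steps. Shank1 (chr7:44310253-44360572, plus strand) was at 10.9, 9.76 and 13.9, then 43.3, 55.0 and 41.8, then 189, 188 and 196 cpm, with rises of 2.09 (SE 0.14) and 2.03 (SE 0.14). Shank2 and Shank3 were called in the second step, with rises of 1.09 (SE 0.08) and 1.26 (SE 0.10), after differences of 0.79 and 0.36. Homer1 (chr13:93299635-93405129, plus strand), which joins Shank to metabotropic receptors, went from 62.5 ± 1.87 to 91.0 ± 3.93 and 135 ± 1.78 cpm (SD, n = 3 each). Its replicates did not overlap at either step, and its differences of 0.60 and 0.57 were below the fold threshold.

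Receptor subunits held the largest first-step rise of the list. Grin2b (chr6:135713233-136173511, minus strand), the NMDA receptor subunit of the immature forebrain, was at 6.30, 5.43 and 5.998 cpm at E11.5 and at 143, 148 and 154 cpm at E14.5 (4.72, SE 0.10, adjusted p = 9.78e-12). At E16.5 it was at 199, 233 and 263 cpm, a difference of 0.68 (SE 0.09). Grin1, the obligatory NMDA receptor subunit, rose at both steps (1.30, SE 0.11, and 1.71, SE 0.11) from a level of 7.28 ± 0.665 cpm (SD, n = 3). Antisense Grin1os overlaps 13.5% of its exon bases.

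Among AMPA receptor subunits, Gria1 (chr11:57011387-57330244, plus strand) was at 7.04, 5.87 and 7.31, then 94.3, 84.7 and 96.9, then 197, 171 and 182 cpm. It rose at both steps, by 3.81 (SE 0.10) and 1.02 (SE 0.09). Gria2 and Gria3 were called in the first step (1.86, SE 0.14, and 2.41, SE 0.22), and Gria4 in the second (1.36, SE 0.12). The second difference of Gria2, 0.76 (adjusted p = 0.000489), was below the fold threshold with replicates that did not overlap, and that of Gria3 was 0.26 (adjusted p = 0.325). The first difference of Gria4, 0.17, turned to -0.43 when the 12 h libraries were compared in place of those of 0 h. Gabra2, a subunit of the GABA-A receptor, rose in the second step (1.52, SE 0.09).

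Levels were also set per kilobase of exon, so that genes could be ordered. Exon length was the union over all annotated transcripts of a gene, for Vamp2 3809 bases against 1113 in its longest coding transcript. The order below thus depends on the length used. At E11.5 the highest were Syt11 (81.6 ± 6.51 cpm per kb, SD, n = 3) and Cplx2 (57.0 ± 11.0), and the lowest apart from Nlgn3 were Dlg2 (0.179 ± 0.0512), Grin2b (0.238 ± 0.0177) and Nrxn3 (0.247 ± 0.0470). At E16.5 the highest were Rab3a (120 ± 6.58), Syt4 (108 ± 0.852) and Syt11 (94.2 ± 1.15), and Nlgn3 was again lowest (0.105 ± 0.0156). The ratio of the E16.5 to the E11.5 mean was 1.15 for Syt11 and 1.35 for Cplx2, the highest at E11.5, beside 0.968 for Nlgn3 at the low end of the list and 39.2 and 82.5 for Grin2b and Dlg2 at the high end.

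Promoters of 27 of the 38 genes were in the RefSeq table used here (GRCm38.p6), 39 promoters in all, each from 250 bases before to 50 after a transcript start. They were searched on both strands for 5 motifs. TTCAGCACC, the left arm of the RE1 element through which REST represses neuronal genes outside neurons, was in 3 of the 39 promoters and in 0.371% of all 32851. The 3 windows are shown because they hold this motif in genes with different calls, Syn1 at both steps, Unc13a at the first and Nlgn1 at the second, with the motif, or its reverse complement in Unc13a, in capitals. They lie at chrX:20921132-20921160, chr8:71671717-71671745 and chr3:26154121-26154149, and each is written along the minus strand that the gene is read from, with the motif starting 232 bases before, 22 bases after and 153 bases before the transcript start.
Syn1: cactgtcggaTTCAGCACCgcggtcagag
Unc13a: ccgcgcccccGGTGCTGAAgcgacatggc
Nlgn1: gtgattggagTTCAGCACCctggttacta
CAGCTG was in 10 of the 39 promoters and 16.3% of all, GGGCGGG in 13 and 25.6%, TATAAA in 1 and 13.6%, and TGACGTCA in 1 and 1.79%. None of these motifs contains another. A match says only that the letters are present.

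Half-lives were then derived from the fall of the conversion rate over the chase. They were kept where covered Ts exceeded 500 at every time point and the fit passed in all 3 replicates. By stage, this gave values for 31, 35 and 37 of the 38 genes, 30 of them measured throughout (18 presynaptic, 12 of the other side). At E11.5 no half-life was obtained for Cplx1, Rims1, Shank1, Gria3, Grin1 and Grin2b, and at E14.5 for Gria4 and Grin1, all through a poor fit or a half-life out of range in at least 1 replicate. Nlgn3 failed at all stages, with as few as 134 covered Ts. None of the 7 genes without a value at E11.5 was higher there than Shank1, so the E11.5 summaries leave out genes of low level, although Dlg2 and Nrxn3 passed at 2.92 and 3.11 cpm.

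At 12 h the rates of the measured synaptic RNAs had medians of 0.252%, 0.286% and 0.241% in stage order. Conversion not due to label was estimated in each replicate as the lowest percentile of 12 h rates among well covered transcripts. It was 0.122% to 0.153%, and half-lives were fitted without subtracting it. The rate at 0 h over all covered Ts was 1.01% to 1.44% at E11.5, 1.03% to 1.18% at E14.5 and 1.80% to 1.91% at E16.5. Background was thus a smaller share of the starting rate at E16.5 than at the earlier stages.

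Most synaptic RNAs lay above the median half-life of their stage. Their own medians were 5.72, 6.71 and 4.31 h in stage order, against 4.43, 4.60 and 3.48 h over the 10858, 10686 and 11850 transcripts measured. Above the stage median of all transcripts were 27 of 31, 29 of 35 and 29 of 37 synaptic RNAs. The presynaptic median was 5.59, 6.54 and 4.27 h and that of the other side 6.11, 6.81 and 4.31 h. Taken within each replicate, presynaptic minus other medians averaged -0.15 ± 0.97, -0.46 ± 0.38 and -0.06 ± 0.26 h in stage order (SD, n = 3). At E11.5 and E16.5 the difference was smaller than the spread between replicates, and at every stage its sign changed under some other setting. At E16.5 it was 0.34 h without the transporters, both of which had short half-lives.

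**Figure D3:**
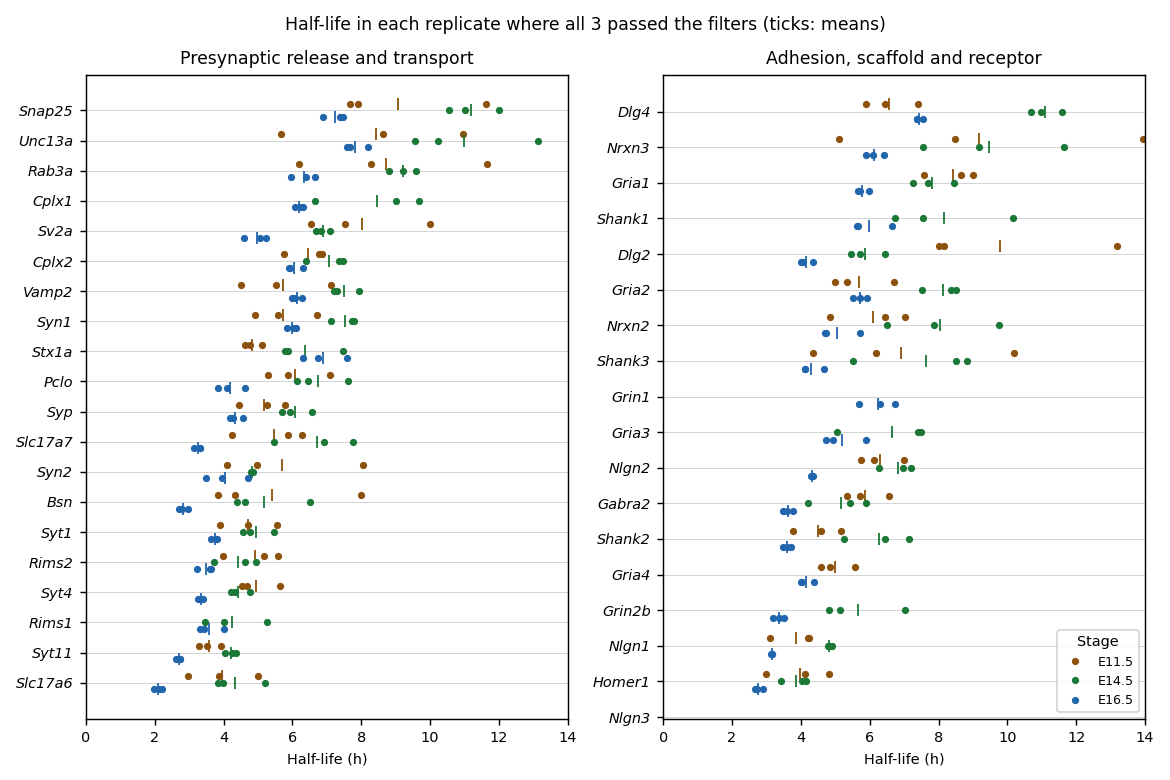
Half-life of each synaptic RNA in hours, 1 point per replicate, coloured by stage, where all 3 replicates passed. A panel for each side lists its genes in order of their mean half-life (ticks mark stage means), with Snap25 and Dlg4 at the long ends and Slc17a6 and Homer1 at the short ends, and Nlgn3 has no value.

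Snap25 had the longest half-life of the 30 genes by the mean of 3 stages (9.17 h). Its E11.5 replicates gave 7.91, 11.6 and 7.67 h, those of E14.5 10.6, 11.0 and 12.0 h and those of E16.5 6.88, 7.47 and 7.39 h, at the 96.2, 97.8 and 95.2 percentiles of all transcripts. Its conversion rate at E14.5 fell from 1.07% ± 0.0506 to 0.425% ± 0.0338 over 12 h (SD, n = 3 each). Unc13a (chr8:71624417-71671757, minus strand) was next, with a mean of 9.07 h (8.42 ± 2.65, 11.0 ± 1.90 and 7.82 ± 0.331 h by stage), and then Rab3a on the presynaptic side with 8.08 h (8.71 ± 2.76, 9.20 ± 0.402 and 6.34 ± 0.347 h). On the other side the longest were Dlg4 (8.36 h), Nrxn3 (8.25 h) and Gria1 (7.33 h).

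The shortest presynaptic half-lives were those of Slc17a6, Syt11 and Syt4, with means of 3.46, 3.50 and 4.24 h. Slc17a6 (chr7:51622006-51671119, plus strand) gave 2.97, 4.99 and 3.87 h in the E11.5 pools, 3.97, 3.85 and 5.21 h in those of E14.5 and 2.12, 1.98 and 2.22 h in those of E16.5. Its E16.5 replicates all lay below those of the earlier stages, at the 11.2 percentile of that stage. At E11.5 and E14.5 it was at the 36.8 and 43.3 percentiles. The median of all transcripts was also lowest at E16.5. In the F-test on relative half-lives described below, Slc17a6 was not called (adjusted p = 0.200). On the other side Homer1 (3.54 h), Nlgn1 (3.94 h) and Shank2 (4.80 h) were shortest. Homer1 was at 4.11, 4.82 and 2.99 h, then 4.15, 4.03 and 3.43 h, then 2.65, 2.74 and 2.91 h, with means below the median of all transcripts at each stage. The scaffolds Homer1 and Dlg4 thus lay at opposite ends at E14.5, at 3.87 ± 0.383 and 11.1 ± 0.462 h (SD, n = 3), with no overlap.

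AU-rich elements in 3′ UTRs are known for recruiting decay factors. TATTTAT, the AU-rich heptamer, which contains the pentamer ATTTA, was searched on the sense strand of the longest coding transcript (GRCm38, GENCODE M21). It was present in 15 of the 30 genes with a half-life at all stages and in 31.6% of 8809 transcripts. It did not separate long from short half-lives in this list. Homer1 held 4 copies and Slc17a6 held 1, but the long-lived Rab3a and Dlg4 held 4 and 2, and Snap25, Unc13a and the short-lived Syt11 held 0. The first copy in a pair of short-lived RNAs (Homer1, chr13:93402596-93402622, and Slc17a6, chr7:51669729-51669755) and a pair of long-lived ones (Rab3a, chr8:70758130-70758156, and Dlg4, chr11:70044794-70044820) is shown, all on the plus strand, with the heptamer in capitals.
Homer1: tttttaaattTATTTATgatatctaca
Slc17a6: aaactgcactTATTTATtacactggac
Rab3a: ccgactacccTATTTATtattgtagct
Dlg4: ccacccttctTATTTATttcctttctg
Across the 30 genes, mean half-life had a Spearman correlation of -0.25 with 3′ UTR length, beside -0.29 over 8809 transcripts, and of 0.06 with the number of heptamers, beside -0.21. These are descriptions across genes, which are not independent replicates and share libraries. The Rims2 transcript has no annotated 3′ UTR, and the transcript expressed in these cells was not determined.

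Half-lives of all transcripts differed in scale between stages, so relative half-lives were compared as z-scores, taken within a replicate over 9505 transcripts with a half-life throughout. By the moderated F-test of limma, 5 of the 30 genes changed (adjusted p under 0.05), beside 3.15% of all transcripts. Dlg4 was called with the smallest adjusted p, 0.00608, followed by Stx1a (0.0182), Syn1 (0.0337), Dlg2 (0.0424) and Vamp2 (0.0431). Between E11.5 and E14.5 1 synaptic RNA became relatively longer-lived (Dlg4) and 0 shorter-lived, beside 0.126% and 0.0736% of all transcripts. Between E11.5 and E16.5 4 became longer-lived (Dlg4, Stx1a, Syn1 and Vamp2) and 1 shorter-lived (Dlg2), beside 2.99% and 1.71%.

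Dlg4 had z-scores of 0.82, 0.96 and 1.06 at E11.5, 3.06, 2.82 and 2.68 at E14.5 and 2.22, 2.24 and 2.12 at E16.5. In hours it went from 6.44, 7.39 and 5.88 to 11.0, 10.7 and 11.6 and back to 7.36, 7.55 and 7.37. Its rate at 0 h, with background not subtracted, was 1.07% ± 0.224, 0.961% ± 0.0747 and 2.01% ± 0.0291 in stage order (SD, n = 3). The z-scores of the stages did not overlap. Its call held when any 1 replicate was left out.

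Stx1a rose in z-score from 0.17, -0.19 and 0.29 through 0.53, 0.46 and 0.94 to 1.59, 2.26 and 1.74. The E16.5 minus E11.5 difference was 1.78 (adjusted p = 0.00849), or 0.64 (adjusted p = 0.374) without the 0 h libraries in the fit. Vamp2, the SNARE on the vesicle, had means of 0.48 ± 0.33, 1.18 ± 0.03 and 1.42 ± 0.10, and Syn1 of 0.51 ± 0.14, 1.21 ± 0.19 and 1.34 ± 0.11 (SD, n = 3 each). In both, all E14.5 and E16.5 replicates lay above all E11.5 replicates. Stx1a rested on as few as 3 converted Ts in a library at E11.5.

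Dlg2 went the other way, from 1.66, 3.50 and 2.36 at E11.5 to 0.81, 0.30 and 0.21 at E14.5 and 0.42, 0.21 and 0.14 at E16.5. At E11.5, where it was near 3 cpm, its half-life of 9.79 ± 2.94 h (SD, n = 3) rested on as few as 4 converted Ts and 917 covered Ts in a library. With covered Ts over 2000 required it had no value and was not called. The 5 calls fell to 1, Dlg4, when A, B or C was left out at E16.5, and to 2, Dlg4 and Stx1a, without E11.5 C or without E14.5 A. With the replicate letter as a block, limma's F-test called 0 synaptic RNAs and 0 transcripts, with 12 and 1861 at an unadjusted p under 0.05, although 3 synaptic RNAs were called higher in the E16.5 minus E11.5 contrast. In hours in place of z-scores 18 of the 30 were called. With labelled RNA, taken as rate times level, in place of the rate, none of the 5 was called, and Cplx2 was the 1 synaptic RNA called of the 20 that then had values. The E16.5 minus E11.5 differences in z-score became 0.71 for Dlg4 (adjusted p = 0.312), 0.91 for Stx1a (0.249), 0.85 for Vamp2 (0.116) and -0.74 for Syn1 (0.186), and Dlg2 had no value.

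**Figure D4:**
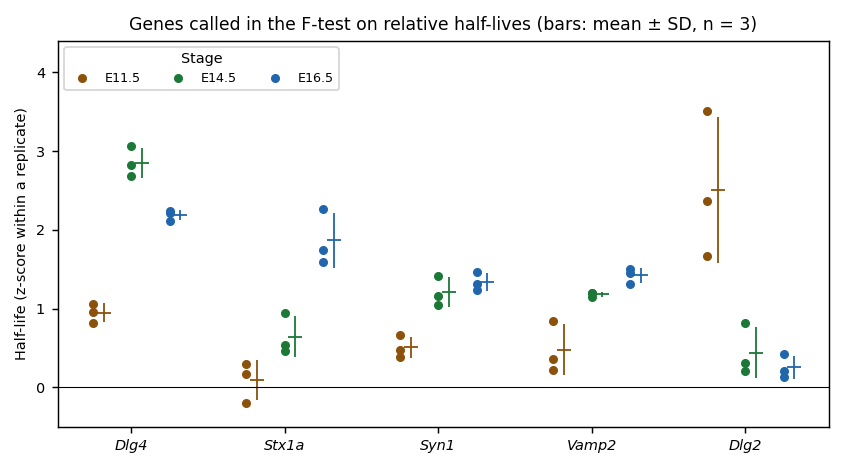
Relative half-life (z-score within a replicate, no unit) of the 5 genes called in the F-test, 1 point per replicate, by stage. Dlg4 moves from at most 1.06 at E11.5 to values between 2.68 and 3.06 at E14.5, Stx1a, Syn1 and Vamp2 end above where they began, and Dlg2 moves from between 1.66 and 3.50 to at most 0.42 at E16.5.

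The conversion rate is a share of each gene's RNA, so it falls when labelled RNA is lost and also when unlabelled RNA is added. The level of each gene at 12 h was therefore compared with that at 0 h. At E11.5, 3 of 38 genes rose (Nrxn3, Grin2b and Syn1) and 1 fell (Cplx2), beside 1.47% and 2.07% of the 17224 genes tested (edgeR, adjusted p under 0.05 and log2 change beyond 1). Without the fold threshold, 29 of the 38 were higher at 12 h with adjusted p under 0.05, beside 16.7% of all genes, and 2 were lower. Without pool C of E11.5, 5 genes in place of 3 passed both thresholds, and the share over all genes in that fit is not given here. The median change of the 38 over all pools was 0.51 against 0.03 over all genes. Scaling to library totals alone moved the median of all genes by over 0.1, to -0.10, and that of the synaptic genes to 0.37, so the gap between them was 0.47 under either scaling.

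Nrxn3 at E11.5 went from 3.05, 2.55 and 3.73 cpm at 0 h to 10.4, 11.1 and 10.0 cpm at 12 h (1.91, SE 0.13, adjusted p = 2.25e-08), through 4.68 ± 0.303 cpm at 4 h and 6.87 ± 0.615 cpm at 8 h (SD, n = 3). Grin2b went from 6.30, 5.43 and 5.998 to 12.7, 13.1 and 12.4 cpm (1.34, SE 0.08, adjusted p = 1.09e-08). Syn1 went from 27.3, 31.7 and 35.2 to 55.4, 60.7 and 56.3 cpm (1.08, SE 0.11, adjusted p = 1.10e-06). In all of them every 12 h well was above every 0 h well. Cplx2 fell from 300, 323 and 220 to 118, 119 and 88.6 cpm, a difference of -1.16 (SE 0.14, adjusted p = 8.26e-06) with every pool lower at each later time.

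**Figure D5:**
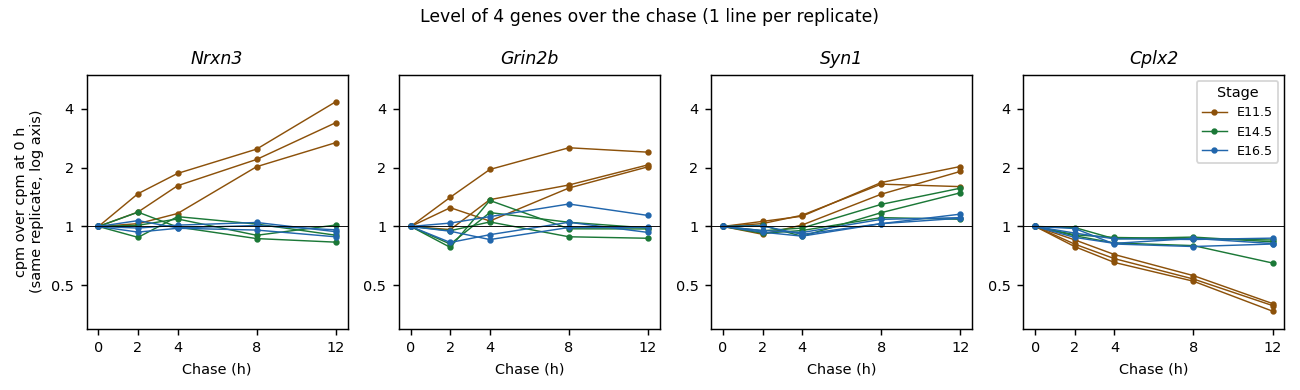
Level of Nrxn3, Grin2b, Syn1 and Cplx2 over the chase in cpm relative to the same pool at 0 h, 1 line per pool, coloured by stage. At E11.5 Nrxn3, Grin2b and Syn1 climb and Cplx2 falls in all 3 pools, and at 12 h every line of E14.5 and E16.5 is nearer to 1 than those of E11.5.

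At E14.5, 1 of 38 genes rose over the chase and 0 fell, beside 0.766% and 1.58% of all genes (11 and 4 at an unadjusted p under 0.05, and the same calls by DESeq2). This was Rims1, from 7.03, 6.43 and 8.16 to 16.4, 15.4 and 15.0 cpm (1.14, SE 0.16, adjusted p = 7.69e-05). At E16.5 0 rose and 0 fell, beside 0.621% and 1.73%, by edgeR and by DESeq2 (16 and 1 at an unadjusted p under 0.05 by edgeR). By adjusted p alone, 6 were higher at E14.5 and 7 at E16.5, beside 10.5% and 11.7% of all genes, and these became 11 and 18 when the pool was added as a block, beside 16.02% and 17.95% of all genes in that fit. At E16.5 the count was 2 without pool A, 4 without B and 2 without C, and the shares over all genes in those fits are not given here.

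With both thresholds applied, the 12 h change differed between stages for Nrxn3 and Grin2b. Against E11.5, that of Nrxn3 was lower by a difference of -2.03 (SE 0.18) at E14.5 and -1.99 (SE 0.17) at E16.5, and that of Grin2b by -1.41 (SE 0.11) and -1.27 (SE 0.11). These were the 2 synaptic genes called in each contrast, beside 1.03% and 1.07% of all genes called lower. By adjusted p alone, the change was lower than at E11.5 for 16 of 38 genes at E14.5 and 13 at E16.5. It was higher for 1 at each of these stages. Over all 17224 genes, 722 and 803 were lower and 194 and 464 higher. All 4 contrasts share the same E11.5 libraries. At E14.5 and E16.5 the fitted 12 h change of either gene lay between -0.12 and 0.07.

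The sum of the neuron markers at E11.5 was 3284 to 3578 cpm at 12 h against 3170 to 3758 at 0 h, and 2 of 9 were higher by adjusted p. Their median log2 change was 0.19. Over all genes at E11.5, 16.7% were higher by adjusted p, 1.47% were called higher and 2.07% called lower. Interneuron markers summed to 68.1 to 73.4 cpm at 12 h against 39.9 to 45.7 at 0 h, with 4 of 6 tested called higher. Radial glia markers summed to 7380 to 8637 against 9718 to 10247 cpm, although 1 of 8 was called higher and 0 lower. By adjusted p alone, 2 of the radial glia markers were higher and 2 lower. Oligodendrocyte lineage markers summed to 142 to 235 cpm against 107 to 140, with 3 of 5 higher by adjusted p. Of 4 astrocyte markers tested 2 were called higher, at sums of 228 to 239 against 232 to 267 cpm. Of 5 microglia markers 2 were called lower, at sums of 2.14 to 3.37 against 5.63 to 8.07 cpm. In the 12 h libraries of E11.5 the gene with most reads, Gm42418, took 3.38%, 4.05% and 8.16% of them. The part of these shifts in the rise of the synaptic genes was not tested.

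Labelled RNA, the rate times the level, gave other half-lives. For Nrxn3 at E11.5 the rate at 12 h was 43.7%, 42.8% and 15.2% of that at 0 h in pools A, B and C, whereas labelled RNA was 149%, 186% and 40.7%. For Dlg2 the rate was 49.3%, 58.2% and 45.8%, and labelled RNA 100%, 116% and 59.8%. Background conversion, estimated at 0.153%, 0.150% and 0.149% in these pools, was not subtracted in either measure. The 12 h rates were 0.319%, 0.304% and 0.222% for Nrxn3 and 0.469%, 0.444% and 0.593% for Dlg2. Background in RNA made during the chase thus counts as labelled RNA here, and its part in these shares was not tested. Nrxn3 rested on as few as 3 converted Ts in a library. The E11.5 half-lives of Nrxn3 and Dlg2, 9.17 ± 4.45 and 9.79 ± 2.94 h (SD, n = 3) by rate, had no value by labelled RNA, because it did not decline in every pool. For Cplx2 at E11.5 the half-life was 6.45 h by rate and 3.78 h by labelled RNA. Syn2 and Bsn, also measured by rate at E11.5, likewise had no value by labelled RNA there. The comparison at E11.5 thus covers 27 of the 31 genes measured by rate. Of the genes with both measures, labelled RNA gave the longer half-life for 24 of 27 at E11.5, 20 of 35 at E14.5 and 18 of 37 at E16.5. The ratio of the labelled RNA value to the rate value had medians of 1.23, 1.05 and 0.999. It ran from 0.586 (Cplx2) to 1.52 (Sv2a) at E11.5, from 0.771 (Unc13a) to 2.10 (Rims1) at E14.5 and from 0.701 (Grin1) to 1.16 (Rims1) at E16.5. For Syn1 labelled RNA gave 8.55, 8.81 and 5.79 h in stage order against 5.73, 7.54 and 5.98 h by rate, and for Stx1a 5.92, 5.99 and 6.22 h against 4.83, 6.37 and 6.88 h.

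Wider lists of synaptic genes, which leave out the 38, were counted in the same fits. Of 63 other presynaptic genes tested, 25 rose and 2 fell in the first step (median 0.71), and 20 rose and 5 fell in the second (0.52). Of 77 other adhesion, scaffold and receptor genes, 32 rose and 5 fell and then 38 rose and 1 fell (medians 0.67 and 0.97). Over all genes tested, 8.14% rose and 8.00% fell in the first step, and 7.19% rose and 5.92% fell in the second. Cacna1e, the R-type calcium channel, went from 1.72 ± 0.170 to 116 ± 16.7 and back to 46.4 ± 11.55 cpm (SD, n = 3 each), with changes of 6.09 and -1.30. Slc32a1, the vesicular GABA transporter and also one of the interneuron markers, rose at both steps (4.00 and 2.11).

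Some genes of the wider lists fell where none of the 38 did. Syt13, an atypical synaptotagmin, fell from 84.6 ± 18.1 to 13.2 ± 3.38 and 2.72 ± 0.454 cpm (SD, n = 3 each). Unc13c, a priming factor, fell and then rose (-1.89 and 2.23) at levels of 1.39 cpm or less. Among receptors and partners Cacng3 (5.39) and Grin2a (4.98) had the largest first-step rises and Grm8 (-2.40) and Camk2a (-1.86) the largest falls. In the second step Grin3a (4.20) and Gabrg3 (3.44) rose most and Grin2c fell (-2.15). In the F-test on relative half-lives 2 of 37 and 4 of 42 measured genes of these lists were called, beside 3.15% of all transcripts. Their median half-lives were 5.22, 5.78 and 4.24 h for presynaptic genes and 5.19, 5.03 and 3.65 h for the others, by stage.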

How the data were processed

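Reads were aligned by the authors with SlamDunk 0.4.3 to mm10 and values were summed over the exons of each gene in GENCODE mouse release 24; alignment filters and the strand setting are not given in the sources used here. The deposited tables, 9 in all with 53491 genes each, hold covered Ts as raw counts, conversion rates as a fraction of covered Ts, and reads per 1e6 reads (cpm), over a total that exceeds the tabulated reads. The authors also deposited half-lives in hours, used only to check the refit, which was within 1% for 333 of 333 fits of these genes. No column was left unmatched (0). Whole reads were recovered from the cpm values (100% whole, within 0.01 reads). Cells without 4sU were not analysed here, and background conversion was estimated from the 1st percentile of 12 h rates over transcripts with more than 20000 covered Ts.

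Expression was tested on covered-T counts by quasi-likelihood in edgeR 4.0.16 (TMM, over 10 counts in all libraries fitted), in 1 fit of the 9 libraries of 0 h and 1 of the 18 libraries of 0 and 12 h. Covered Ts are several per read, so counting error is larger than their number implies. Each rate was divided by that at 0 h and exp(-kx) was fitted, and half-lives between 0 and 24 h with R2 over 0.6 were kept. Relative half-lives were compared with limma 3.58.1. The p-values measure the spread between pools; the study's own regression across stages was not rerun. Scripts were tested on simulated data (R 4.3.3, Python 3.11.15). Coordinates and transcripts are from GENCODE M21 (GRCm38), which named 51573 of 53491 symbols.

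The 38 genes, the sides and the wider lists were chosen with earlier results of these data known. Values are given for the 3 largest called rises and falls per side and step, the 3 longest and shortest half-lives per side, members called in the F-test, the 2 largest called rises and falls over the chase, members that failed a filter, Snap25 and Rab3a, and the 2 largest changes in each direction of the wider lists. Others are named by their calls. Letters mark 1 pool within a stage, per the labels, and deviations of a pool at 0 and 12 h correlated at r = 0.0987 to 0.298. Between stages letters mark different embryos (r = -0.082 to 0.069). Alternatives were DESeq2 1.42.0, other scalings, filters, fits, recovered reads, blocks and each replicate left out.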

Additional observations from a re-analysis of the deposited data

Results flagged for a closer look

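The change of Nrxn3 between 0 and 12 h of chase differed between stages in the test of the difference itself (interaction contrast of the edgeR fit over 18 libraries, adjusted over 17224 genes). Relative to E11.5 it was -2.03 at E14.5 (SE 0.18, adjusted p = 3.77e-06) and -1.99 at E16.5 (SE 0.17, adjusted p = 4.45e-06). The pools of E11.5 gave log2 ratios in cpm of 1.77, 2.12 and 1.43, those of E14.5 0.02, -0.15 and -0.27, and those of E16.5 -0.09, -0.06 and -0.18.

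Grin2b differed in the same contrasts, by -1.41 (SE 0.11, adjusted p = 2.36e-06) and -1.27 (SE 0.11, adjusted p = 4.45e-06). Its pools gave 1.02, 1.26 and 1.05 at E11.5 against -0.04, -0.03 and -0.20 at E14.5 and 0.19, -0.02 and -0.10 at E16.5. The contrasts share the E11.5 libraries, so they are not independent of each other.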

How the results depend on the processing

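Among the synaptic genes called in the expression steps, the counts stayed within 1.5 times under all alternatives but the test against a fold of 2 (9 in the second step); the first-step count ranged from 16 to 22 and the second, that test aside, from 15 to 18. With the replicate letter as a block the counts were again 22 and 17. Of all genes, that test called 912 higher and 736 lower in the first step and 502 and 321 in the second, and recovered reads, with 14611 genes tested, called 964 lower in the first. In the 12 h comparisons recovered reads called 144 higher and 115 lower at E11.5, 74 and 82 at E14.5 and 43 and 82 at E16.5. Leaving out a replicate gave 231 to 357 genes lower at E11.5 and 186 to 326 at E16.5, and 3 to 5 synaptic genes higher at E11.5. Without the fold threshold, a count chosen after seeing the data, the pool as a block gave 11 at E14.5 and 18 at E16.5, where DESeq2 gave 12, library totals 4, recovered reads 4 and leaving out a replicate 2 to 10.

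Several differences near 0 changed sign. Gria4 in the first step was -0.43 between the 12 h libraries. Snap25 in the second step was 0.012 with DESeq2 or RLE, 0.00012 with recovered reads, 0.14 between the 12 h libraries and -0.082 to 0.050 when a replicate was left out, and on leaving out replicates Slc17a6 ranged from -0.15 to 0.069, Dlg4 from -0.049 to 0.19 and Cplx2 from -0.084 to 0.17. The causes were not tested.

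Median half-lives moved most with the fit. Presynaptic and other medians were, in stage order, 3.97 and 4.49, 5.06 and 5.43, and 3.85 and 3.85 h with background subtracted, and 4.06 and 3.94, 4.53 and 4.42, and 2.65 and 2.77 h without the 0 h libraries. A free start gave 5.85 h (presynaptic, E14.5), 3.89 and 3.97 h (E16.5). Rate times cpm, chosen after seeing the data, gave 7.32 h (other, E11.5), 6.002 h (presynaptic, E14.5), 4.42 and 4.67 h (E16.5). At E16.5 the presynaptic median was 4.05 h with R2 over 0.8 and 4.66 h without the transporters. Leaving out a replicate gave presynaptic medians of 6.17 to 6.71 h at E14.5 and 4.24 to 4.38 h at E16.5.

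From the medians of stage means, presynaptic minus other was -0.52, -0.27 and -0.04 h. It reversed at E11.5 and E14.5 with R2 over 0.8 (0.031 and 0.087 h) and without 0 h (0.12 and 0.11 h), and at E16.5 with background subtracted (0.0055 h) and without the transporters (0.34 h). At E14.5 it was -0.70 h with a free start and -0.91 h with rate times cpm. Leaving out a replicate gave -0.70 to 0.13 h at E11.5 and -0.86 to -0.41 h at E14.5.

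In the F-test on relative half-lives 18 synaptic RNAs and 2296 transcripts were called in hours, 3 synaptic RNAs with log2 half-lives and 2 without 0 h, and 547 and 574 transcripts with R2 over 0.8 and a free start. The replicate block called 0 and 0 (12 and 1861 at an unadjusted p under 0.05). Rate times cpm, chosen after seeing the data, called 1 and 146, and turned the z differences of Syn1 (-0.12 at E14.5 and -0.74 at E16.5 against E11.5) and of Stx1a (-0.16 at E14.5). Leaving out a replicate gave 1 to 5 and 3 to 267. Low coverage limits the E11.5 half-lives of genes near 3 cpm.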
